A study of Homo sapiens with 12 samples.

Results

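The CT83 line of HMLE cells was compared with the Control line over all expressed genes. The members are the 3 libraries titled HMLE CT83 and the 3 titled HMLE Control, 6 of the 12 libraries of the series. Of 61533 gene entries in the files, 15616 passed a filter on low counts and were tested. HMLE cells are human mammary epithelial cells that were made immortal with telomerase and the SV40 early region. By their labels, the CT83 line overexpressed a CT83 transgene and the Control line a control transgene, both lines went through puromycin selection, no other treatment was given, and polyadenylated RNA was sequenced. The other 2 lines carried both transgenes (HORMAD1 and CT83, called the double line below) or HORMAD1 alone. Each construct is represented by 1 line, and the labels do not say whether the 3 libraries of a line came from separate cultures. The p-values therefore cover the spread between these libraries and no more, and that spread may be technical, and a property of the line cannot be told apart from an effect of its construct.

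CT83, also known as KK-LC-1 or CXorf61, belongs to the X-linked cancer/testis genes. Genes of this class are transcribed in male germ cells, are silent in most normal somatic tissues and are transcribed again in some tumours, which makes their products targets of T cells in cancer immunotherapy. CT83 transcripts have been found in lung and gastric cancers and in breast cancers of the basal type, and the gene encodes a short protein.

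The coding sequence is shown because it belongs to the transcript that separates the 2 lines. The start codon in exon 1 and the stop codon in exon 2 are in capitals. It is the reference sequence of GENCODE 29 on the minus strand of GRCh38, 342 bases long with 113 codons before the stop. The gene has 2 exons, with 75 coding bases in exon 1 (chrX:116462782-116462856) and 267 in exon 2 (chrX:116461741-116462007). The sequence of the construct itself was not used here.
CT83 exon 1, coding part: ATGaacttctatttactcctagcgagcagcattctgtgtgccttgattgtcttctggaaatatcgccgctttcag
CT83 exon 2, coding part: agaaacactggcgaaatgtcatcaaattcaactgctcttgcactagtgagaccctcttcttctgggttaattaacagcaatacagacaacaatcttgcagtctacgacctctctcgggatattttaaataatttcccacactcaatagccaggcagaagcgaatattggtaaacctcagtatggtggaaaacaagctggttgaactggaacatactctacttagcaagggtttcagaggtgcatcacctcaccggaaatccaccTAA

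The CT83 transcript was abundant in the CT83 line and undetected in the Control line. CT83 (ENSG00000204019.5; GRCh38 chromosome X, 116461682 to 116463003) had 4670, 5160 and 7568 counts in the CT83 libraries, against 0, 0 and 0 counts in the Control libraries. Scaled to CPM, which relates the counts of a gene to the total of its library, these were 400.2, 446.1 and 723.7 CPM in the CT83 line, a mean of 523.4 ± 175 CPM (SD, n = 3), against 0 CPM in each Control library. The groups did not overlap, and CT83 replicate 3 held 1.81 times the level of replicate 1. A count of 0 allows up to 3 counts, which was 0.228, 0.262 and 0.253 CPM in the 3 Control libraries. Against the mean of these limits, CT83 was at least 2114-fold higher in the CT83 line. Limits of this kind cover counting error only.

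In the quasi-likelihood test of edgeR with Benjamini-Hochberg adjustment, CT83 passed (adjusted p = 0.0267). An exact two-sided permutation test over the 6 libraries gave p = 0.1, the smallest that 3 against 3 can give. The edgeR call was lost in 6 of 12 fits that each left out 1 library, namely any library of the double line, HORMAD1 replicate 1, CT83 replicate 2 or Control replicate 2 (adjusted p = 0.0626 to 0.315), although the Control libraries held 0 CT83 counts throughout. It was also lost without a low-count filter (adjusted p = 0.295) and with the 6 libraries fitted alone (adjusted p = 0.938). CT83 passed by DESeq2 (adjusted p = 4.32e-31) and by limma-voom (adjusted p = 1.61e-05). It also passed in edgeR with a dispersion estimate that was not robust (adjusted p = 3.59e-06). The loss of the call thus depended on the fit, and its cause was not tested.

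CT83 made up 0.0403%, 0.0456% and 0.0728% of all counts in the 3 CT83 libraries. By CPM it ranked 343, 296 and 150 among all gene entries there, and by CPM per kilobase of transcript 216, 188 and 72. In the double line the CT83 transcript was at 86.69, 101.1 and 117.8 CPM, a mean of 101.9 ± 15.6 CPM (SD, n = 3), below every library of the CT83 line. HORMAD1, a HORMA-domain gene of meiosis, had 0 counts in all 6 CT83 and Control libraries.

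**Figure D1:**
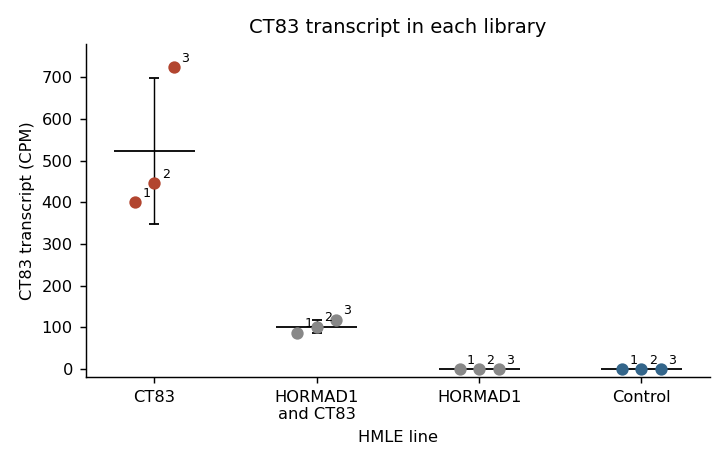
CT83 transcript in CPM (vertical axis, linear) in the 3 libraries of each HMLE line, numbered by replicate, with the mean (line) and SD (error bar). The CT83 libraries lie between 400.2 and 723.7 CPM, the double line between 86.69 and 117.8 CPM, and the HORMAD1 and Control libraries at 0.

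Apart from its own transcript, no gene passed the test in the CT83 line. Of 15616 genes, 1 was called by edgeR's quasi-likelihood test at a Benjamini-Hochberg adjusted p under 0.05, which is 0.0064% of those tested. The lowest adjusted p among all other named genes and list members was 0.984. By DESeq2 and by limma-voom the number called was likewise 1. With an unadjusted p under 0.05 there were 428 genes (2.74%), 226 with higher values in the CT83 line (1.45%) and 202 with lower values (1.29%). DESeq2 gave 302 and limma-voom 450 such genes. Where no gene differs, a share of about 0.05 of the genes is expected under a threshold of 0.05, and the 2.74% found was smaller. The count of 428 is therefore no sign by itself that genes differed. The shares of all genes printed beside the lists below are observed shares, not those expected where nothing differs. Genes at an unadjusted p under 0.05 are described below by their values. The unadjusted p orders them without making them calls.

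The libraries set limits on how large an unseen difference could be. The CT83 libraries held 10399480 to 11584649 counts and the Control libraries 11359326 to 13322838. Log2 fold changes had a median SE of 0.152. Leaving out CT83, the 95% confidence interval of the difference lay within 2-fold in either direction for 13092 of 15615 genes (83.8%), and within 1.5-fold for 64%. For the 12254 genes with a mean log2 CPM of at least 2, these shares were 95.5% and 80.6%, and for the 6212 genes with a mean of at least 5 they were 97.7% and 93.5%. The log2 fold changes of all genes had a median of 0.01 and a 5th to 95th percentile range of -0.29 to 0.46. A log2 fold change beyond 1 in either direction was estimated for 105 genes, of which 10 had a mean log2 CPM of at least 2.

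**Figure D2:**
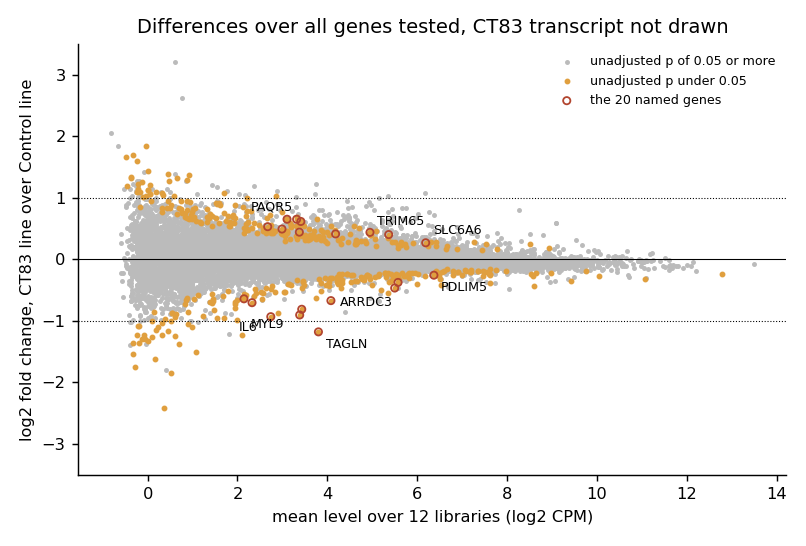
Log2 fold change of the CT83 line over the Control line (vertical axis) against mean level over 12 libraries in log2 CPM (horizontal axis), 1 point per gene, without CT83 itself. Coloured points have an unadjusted p under 0.05, circles mark the 20 genes of smallest p in the text, and dotted lines mark a 2-fold difference. The spread narrows with the level, and 10 genes with a mean log2 CPM of at least 2 lie beyond 2-fold.

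The genes with the smallest unadjusted p and values that did not overlap between the lines included, on the lower side, the actin-binding and contractile genes TAGLN, MYL9 and PDLIM5 and the cytokine IL6. The 10 genes on the lower side had log2 fold changes of -1.18 to -0.26 with unadjusted p of 0.000728 to 0.00744, and the 10 on the higher side 0.27 to 0.65 with unadjusted p of 0.00252 to 0.00738. All 20 had an adjusted p of 0.984 in the quasi-likelihood test of edgeR with Benjamini-Hochberg adjustment. Since these genes were picked for not overlapping, their separation is a description. Over all genes, 739 of 15616 (4.73%) had all 3 CT83 values above all 3 Control values and 895 (5.73%) had them below.

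ARRDC3, an arrestin-domain protein that takes part in the trafficking of membrane receptors, had the smallest unadjusted p of these 20 genes. It stood at 14, 11.7 and 12.4 CPM in the CT83 libraries, against 18.3, 17.7 and 24.6 CPM in the Control libraries (log2 fold change -0.67, SE 0.16). In the double line it was at 19.6, 19.3 and 15.9 CPM, against 14.9, 13.9 and 18.3 CPM in the HORMAD1 line. There the log2 fold change was 0.22 and the ranges overlapped. It shares its locus with an antisense gene, ARRDC3-AS1.

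IL6, an inflammatory cytokine, was at 4.37, 3.03 and 5.93 CPM in the CT83 libraries, against 9.18, 8.04 and 8.09 CPM in the Control libraries (log2 fold change -0.93, SE 0.29). IL7R, the receptor chain for interleukin 7, was at 37.5, 37.2 and 47.8 CPM in the CT83 libraries, against 50.2, 55.6 and 52.8 CPM in the Control libraries (-0.37, SE 0.12). In both genes CT83 replicate 3 was the closest to the Control line. In the double line against the HORMAD1 line the log2 fold change was above 0, at 0.19 for IL6 and 0.07 for IL7R. Of the 10 lower genes, 5 kept their sign there. NMU, which encodes the secreted peptide neuromedin U, was at 31.5, 34.7 and 41.5 CPM in the CT83 libraries, against 44.7, 52.1 and 51.7 CPM in the Control libraries (-0.47, SE 0.12). BDNF, a neurotrophin, was at 2.49, 4.06 and 4.11 CPM in the CT83 libraries, against 5.76, 5.42 and 6.15 CPM in the Control libraries (-0.70, SE 0.21). Neither of these 2 genes overlapped between the lines. Besides TAGLN, MYL9 and PDLIM5, the other 2 genes on this side were DPYSL3 and ZNF780B. DPYSL3 binds microtubules and actin in neurons (log2 fold change -0.81, SE 0.26), and ZNF780B is a zinc finger gene (-0.64, SE 0.20).

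On the higher side, TRIM65, a RING-domain ubiquitin ligase, was at 39.4, 34.2 and 35.8 CPM in the CT83 libraries, against 27.5, 25.2 and 28.1 CPM in the Control libraries (log2 fold change 0.44, SE 0.12). SLC6A6, the taurine transporter, was at 83.3, 82 and 89.2 CPM in the CT83 libraries, against 71.8, 73.1 and 66.1 CPM in the Control libraries (0.27, SE 0.08). PAQR5, a membrane progesterone receptor, was at 11, 13 and 7.94 CPM in the CT83 libraries, against 6.98, 7.43 and 5.9 CPM in the Control libraries (0.65, SE 0.19). In PAQR5 CT83 replicate 3 lay nearest to the Control line, while in SLC6A6 it lay farthest from it. MTSS1, which links membranes to actin, was at 49.6, 54.1 and 43.9 CPM in the CT83 libraries, against 34, 39 and 38.7 CPM in the Control libraries (0.40, SE 0.13). LARGE2, a glycosyltransferase that modifies dystroglycan, was at 12.2, 14.7 and 9.75 CPM in the CT83 libraries, against 8.11, 7.87 and 7.33 CPM in the Control libraries (0.65, SE 0.20). The remaining 5 were P4HTM, a transmembrane prolyl hydroxylase (0.44, SE 0.14), STRIP2 of the STRIPAK phosphatase complex (0.41, SE 0.13), the zinc finger gene ZNF688 (0.53, SE 0.16), CCDC200 (0.62, SE 0.20) and the divergent transcript DPP3-DT (0.49, SE 0.15). The use of strand in the counting is not given in the sources used here. P4HTM, ZNF688, CCDC200, DPP3-DT, SLC6A6, PAQR5 and MTSS1 overlap other tested genes and cannot be told apart from them with certainty. The same holds for IL6 and BDNF on the lower side. Among genes named further below it also holds for DDIT3, SLC16A3, LY6K, PLAU, PTHLH, WNT5B, FAP, OCLN, GLIPR1, PXYLP1, PLS3, PMEL and SYCP3.

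The double line and the HORMAD1 line form a second pair that differs in the CT83 transgene and shares no library with the first. In that pair 7 of 15616 genes were called by the quasi-likelihood test of edgeR with Benjamini-Hochberg adjustment (0.0448%), and 1185 genes (7.59%) had an unadjusted p under 0.05, 539 higher in the double line (3.45%) and 646 lower (4.14%). Of all genes, 51.9% had a log2 fold change below 0. Libraries of this pair stood apart in the slope of log2 CPM on log2 transcript length, which was -0.04, -0.0218 and 0.00436 in the double line, against 0.043, -0.00869 and -0.0179 in the HORMAD1 line (centred on the average of all 12 libraries). Of 79 cytosolic ribosomal protein genes 4 were below 0 in this pair, with a median of 0.12, and of 62 nuclear genes of oxidative phosphorylation likewise 4, with a median of 0.12. The part of these shifts in the values of this pair was not tested. Of the 20 genes above, 6 of the 10 higher and 5 of the 10 lower ones had the same sign there. An unadjusted p under 0.05 with the same sign was reached by 2 of the higher genes, TRIM65 (log2 fold change 0.31) and LARGE2 (0.67), and by 3 of the lower genes, NMU (-0.37), MYL9 (-0.57) and PDLIM5 (-0.26). With the opposite sign it was reached by 0. LARGE2 was at 12.9, 10.9 and 11.7 CPM in the double line, against 9.98, 5.5 and 6.58 CPM in the HORMAD1 line, without overlap. Whether the difference between the lines was unlike in the 2 pairs was also tested, with edgeR's quasi-likelihood test alone. It called 0 genes (0%), with 703 genes (4.5%) at an unadjusted p under 0.05. The mean CT83 level was 101.9 CPM in the double line, against 523.4 CPM in the CT83 line. A difference between the pairs thus cannot be told apart from one of CT83 level or of the single lines.

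Several genes of the actin cytoskeleton had lower values in every CT83 library than in any Control library, while ACTA2 and CALD1 had log2 fold changes near 0. Of 35 contractile and actin-binding genes tested, 0 were called, 6 had an unadjusted p under 0.05 with lower values (17.1%, against 1.29% of all genes lower and 2.74% in either direction) and 0 with higher values. In 8 of the 35 the CT83 values all lay below the Control values, against 5.73% of all genes, and in 0 above, against 4.73% of all genes. The gene lists were chosen with earlier results of these data known. TAGLN and MYL9 of this list were also picked above for not overlapping in the same libraries. These shares are therefore a description. A log2 fold change below 0 was found in 20 of the 35 (57.1%, against 48.4% of all genes) and above 0 in 15. The median log2 fold change was -0.08, against 0.01 over all genes.

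TAGLN, the calponin-family actin-binding protein transgelin (chromosome 11, 117199321 to 117204782), was at 6, 5.97 and 13 CPM in the CT83 libraries, against 17.6, 19.8 and 18.8 CPM in the Control libraries (log2 fold change -1.18, SE 0.30). MYL9, a regulatory myosin light chain (chromosome 20, 36541484 to 36551447), was at 7.63, 4.93 and 9.18 CPM in the CT83 libraries, against 11.8, 15.6 and 13.1 CPM in the Control libraries (-0.90, SE 0.24). In both CT83 replicate 3 was nearest to the Control line. TPM1, a tropomyosin that lies along actin filaments, was at 149, 147 and 202 CPM in the CT83 libraries, against 217, 217 and 216 CPM in the Control libraries (-0.38, SE 0.15). PDLIM5, a scaffold that binds alpha-actinin, was at 71.5, 70 and 72.9 CPM in the CT83 libraries, against 82.9, 85.5 and 87.8 CPM in the Control libraries (-0.26, SE 0.08). None of these 4 genes overlapped between the lines, and PDLIM5 had about the same level in CT83 replicate 3 as in the other 2 CT83 libraries. TAGLN, MYL9 and TPM1 overlap other tested genes on the opposite strand.

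The next members were picked after their values were seen. ACTB, cytoplasmic beta-actin, was at 6336, 6040 and 6691 CPM in the CT83 libraries, against 7492, 7242 and 7638 CPM in the Control libraries (log2 fold change -0.23, SE 0.10). The tropomyosin TPM4 was at 757, 755 and 850 CPM in the CT83 libraries, against 874, 892 and 931 CPM in the Control libraries (-0.19, SE 0.08). Neither overlapped between the lines. TPM3 (-0.18, SE 0.11) and the myosin light chain MYL6 (-0.14, SE 0.10) also did not overlap but had an unadjusted p over 0.05. ACTA2, the smooth muscle actin that marks myoepithelial cells, was at 3.6, 4.67 and 4.49 CPM in the CT83 libraries, against 3.72, 4.46 and 4.72 CPM in the Control libraries. Its log2 fold change was -0.01 with a 95% confidence interval of -0.63 to 0.60. Caldesmon (CALD1) was at 0.00 (interval -0.23 to 0.24), and SRF, the transcription factor that binds the promoters of many of these genes, at 0.13 (interval -0.22 to 0.48). ACTA2, CALD1 and SRF all overlapped between the lines.

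MYH9, the heavy chain of nonmuscle myosin, followed single libraries. It was at 349, 581 and 1453 CPM in the CT83 libraries, against 363, 896 and 331 CPM in the Control libraries (log2 fold change 0.58, SE 0.80). The crosslinker FLNA was at 614, 761 and 1492 CPM in the CT83 libraries, against 634, 1036 and 624 CPM in the Control libraries (0.32, SE 0.46). Both were highest in CT83 replicate 3 and, among Control libraries, in replicate 2. In the double line against the HORMAD1 line, 26 of the 35 list members had a log2 fold change below 0, against 51.9% of all genes, with a median of -0.12, against -0.01 over all genes. There 2 members with lower and 1 with higher values had an unadjusted p under 0.05 in edgeR's test (4.14% and 3.45% of all genes). TAGLN was at 8.7, 10.7 and 16 CPM in the double line, against 12.8, 17 and 18.9 CPM in the HORMAD1 line, where the ranges overlap (log2 fold change -0.46).

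**Figure D3:**
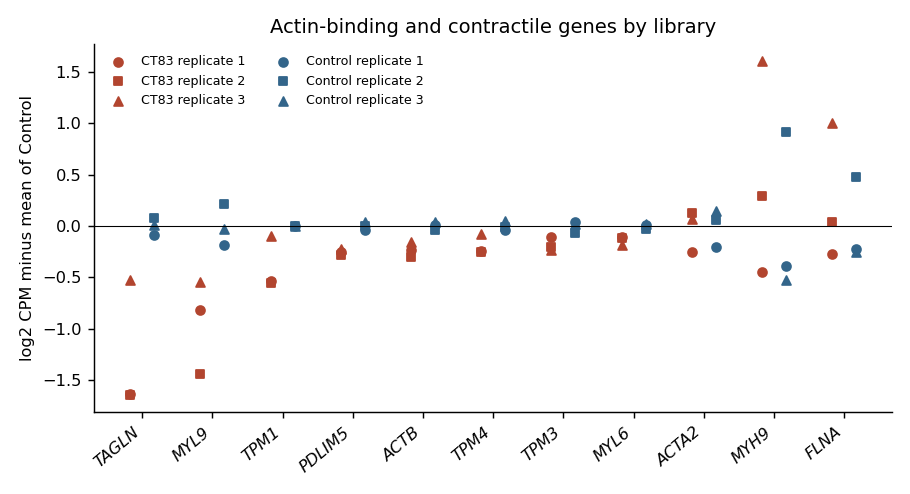
Log2 CPM of 11 actin-binding and contractile genes in each library minus the mean of the Control libraries (vertical axis), with CT83 libraries left of Control libraries and replicates by symbol. From TAGLN to MYL6 every CT83 value lies below every Control value, ACTA2 overlaps, and MYH9 and FLNA are highest in CT83 replicate 3 and next highest in Control replicate 2. The 11 genes are a selection, and of the 35 genes of the list 15 had a log2 fold change above 0.

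Other cancer/testis genes of the X chromosome stayed at or near 0 counts in both lines. Of 68 such genes in the files, among them the MAGE, SSX, GAGE and CT45 families, 55 had 0 counts in all 6 libraries. The other 13 summed to 2.4, 1.3 and 1.34 CPM in the CT83 libraries, against 1.06, 1.49 and 2.86 CPM in the Control libraries. The sums overlapped, and counts of near-identical family members may be shared among them. The filter on low counts was passed by 2, the cytokine receptor IL13RA2 (log2 fold change 0.10) and the placental gene PLAC1 (-0.22), and neither was called. Of 66 cancer/testis genes of the autosomes, 24 were tested and 0 were called. Their summed level over all 66 was 1251, 1240 and 1246 CPM in the CT83 libraries, against 1275, 1269 and 1292 CPM in the Control libraries. Several of these genes also serve cell division in somatic cells. CEP55, needed for the last step of cell division, was at 143, 141 and 135 CPM in the CT83 libraries, against 155, 153 and 157 CPM in the Control libraries (log2 fold change -0.15). LY6K, a surface protein of the Ly6 family, was at 31.3, 32.4 and 38.3 CPM in the CT83 libraries, against 40, 39.8 and 40.5 CPM in the Control libraries (-0.24). Neither gene overlapped, and both had an unadjusted p over 0.05. REC8, a meiotic cohesin subunit picked after its values were seen, had an unadjusted p of 0.0494 in edgeR's test at levels of 0.519 to 1.57 CPM.

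No gene near CT83 on the X chromosome passed the test. Of 54 gene entries that start within 2 Mb of CT83, 10 are protein coding and 6 were tested, of which 0 were called and 0 had an unadjusted p under 0.05 in edgeR's test. Their log2 fold changes were -0.14 to 0.10. PLS3, the actin-bundling protein plastin 3, was at 427, 443 and 473 CPM in the CT83 libraries, against 459, 467 and 555 CPM in the Control libraries. The ubiquitin ligase adaptor KLHL13 was at 24.9, 23.9 and 19.9 CPM in the CT83 libraries, against 21.8, 19.2 and 23 CPM in the Control libraries. Both overlapped. WDR44, IL13RA2, PLS3-AS1 and DANT2 were the other 4 tested.

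Both lines carried the markers of mammary epithelium, and the luminal keratins KRT8 and KRT18 had lower values in every CT83 library. All 8 mammary epithelial markers were present, summing to 7436, 7492 and 8226 CPM in the CT83 libraries, against 8400, 8939 and 8768 CPM in the Control libraries. KRT8, a keratin of the luminal layer, was at 1916, 1866 and 1981 CPM in the CT83 libraries, against 2266, 2611 and 2350 CPM in the Control libraries. Its partner KRT18 was at 965, 931 and 1016 CPM in the CT83 libraries, against 1123, 1255 and 1137 CPM in the Control libraries. The 2 genes overlap at their ends, and neither passed the adjusted test. CD24, a surface glycoprotein of luminal cells, was at 297, 299 and 364 CPM in the CT83 libraries, against 421, 441 and 441 CPM in the Control libraries. Of 17 luminal genes tested, 3 had an unadjusted p under 0.05, all lower (KRT8, KRT18 and CD24), against 1.29% of all genes lower. In 5 the lines did not overlap, all lower, against 5.73% of all genes, and the median log2 fold change was -0.14.

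Of 24 basal keratins and myoepithelial genes, 0 had an unadjusted p under 0.05 in edgeR's test, 3 did not overlap, all lower (KRT17, OXTR and FGFBP1; 5.73% of all genes did so), 17 had a log2 fold change below 0 and the median was -0.11. The basal keratin KRT5 was at 2680, 2722 and 3072 CPM in the CT83 libraries, against 3063, 3037 and 3130 CPM in the Control libraries. Of 35 cell junction genes, 28 had a log2 fold change below 0 (80%, against 48.4% of all genes), 7 did not overlap, all lower (against 5.73% of all genes), and 0 had an unadjusted p under 0.05 in edgeR's test, with a median of -0.07. Among them were OCLN (-0.25) and MARVELD2 (-0.23) of tight junctions and PKP2 (-0.16) of desmosomes. MARVELD2 and PKP2 were picked after their values were seen. A high share below 0 was not particular to junction genes. It was 75.9% for cytosolic ribosomal protein genes and 73.3% for stress response genes. Over lists with at least 5 genes tested it ran from 30.4% (EGFR ligands and MAPK feedback) to 84% (mesenchymal genes). Over all genes with a mean log2 CPM of at least 5, the median was -0.02. In the second pair, the double line against the HORMAD1 line, 27 of the 35 junction genes and 14 of the 17 luminal genes were below 0, against 51.9% of all genes. An unadjusted p under 0.05 in edgeR's test was reached there by 10 junction and 6 luminal genes, all lower (4.14% of all genes). The basal list lay on the other side there, with 8 of 24 genes below 0, a median of 0.07, and 3 genes at an unadjusted p under 0.05, all higher (3.45% of all genes).

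Most mesenchymal genes had log2 fold changes below 0 in the CT83 line against Control. Of 25 mesenchymal genes, 21 were below 0 (48.4% of all genes were) with a median of -0.22. An unadjusted p under 0.05 was reached by 3, all lower (1.29% of all genes), and 4 did not overlap, all lower (5.73% of all genes). The median was -0.41 without CT83 replicate 3 and -0.15 without CT83 replicate 2, the ends of its range over the alternative fits, and its SD between replicates was 0.28. In the double line against the HORMAD1 line, 11 of these 25 were below 0 and the median was 0.09. FAP, a serine protease of activated fibroblasts, was at 17.1, 17.4 and 17.6 CPM in the CT83 libraries, against 19.4, 22 and 19.8 CPM in the Control libraries (log2 fold change -0.23). COL1A1, a fibrillar collagen, was at 8.83, 11.1 and 23.6 CPM in the CT83 libraries, against 19.8, 14.8 and 43.4 CPM in the Control libraries. FAP did not overlap between the lines, and COL1A1 did. The 7 fibroblast markers summed to 27.5, 29.1 and 43.8 CPM in the CT83 libraries, against 42.9, 39.6 and 72.8 CPM in the Control libraries. LUM was at 0 in the CT83 line and DCN and LUM reached at most 1.06 CPM in any library. The part of these markers in the mesenchymal values was not tested. Endothelial, immune and adipocyte markers each summed to at most 1.82 CPM in any of the 6 libraries, with PTPRC, TYROBP and ADIPOQ at 0. Melanocyte markers summed to 81.3 to 102 CPM, nearly all of it PMEL, with TYR at 0. Germ cell markers summed to 4.69 to 6.15 CPM, most of it SYCP3, with DAZL at 0.

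Among genes of the plasminogen system and matrix proteases, PLAUR, the urokinase receptor, was at 48.9, 49.2 and 64 CPM in the CT83 libraries, against 66.3, 72 and 75.2 CPM in the Control libraries (log2 fold change -0.40, SE 0.16). TIMP1, an inhibitor of metalloproteases, was at 69.8, 73 and 60.2 CPM in the CT83 libraries, against 59.2, 58.7 and 50.8 CPM in the Control libraries (0.27, SE 0.11). Neither overlapped, and they lay on opposite sides. Urokinase itself (PLAU) was at 350, 311 and 621 CPM in the CT83 libraries, against 503, 523 and 619 CPM in the Control libraries, where CT83 replicate 3 lay beside the highest Control value. It was picked after its values were seen. Of the 21 genes of this list, 3 had an unadjusted p under 0.05 (2.74% of all genes did), 2 of them lower.

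In the Notch pathway, where gamma-secretase cleaves the receptor to release its active fragment, 2 of 29 genes had an unadjusted p under 0.05 (2.74% of all genes did), in opposite directions. The receptor NOTCH2 was at 168, 165 and 191 CPM in the CT83 libraries, against 136, 149 and 145 CPM in the Control libraries (log2 fold change 0.28, SE 0.13). RBPJ, the DNA-binding partner of the active fragment, was at 54.7, 53.5 and 54.1 CPM in the CT83 libraries, against 67.3, 54.2 and 67.2 CPM in the Control libraries (-0.22, SE 0.10). NOTCH2 did not overlap between the lines, and RBPJ did, with Control replicate 2 below CT83 replicate 1. HES1, a target gene of the pathway, was at 179, 140 and 134 CPM in the CT83 libraries, against 183, 190 and 196 CPM in the Control libraries, without overlap but with a log2 fold change of -0.33 (interval -1.57 to 0.92). HES1 was picked after its values were seen. The gamma-secretase subunit NCSTN, picked after its values were seen, had a log2 fold change of 0.02 (interval -0.16 to 0.20).

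In the Hippo pathway, whose kinases restrain the coactivators YAP and TAZ, 0 of 28 genes and 0 of 24 YAP/TAZ target genes had an unadjusted p under 0.05 in edgeR's test. The medians were -0.03 and -0.09. STK3, one of the Hippo kinases, had a log2 fold change of -0.20 without overlap. Of the Wnt list of 27 genes, 3 had an unadjusted p under 0.05, all lower (1.29% of all genes). They were the receptor FZD2 at 16.5, 18.2 and 16.2 CPM in the CT83 libraries, against 21.3, 23.4 and 20.1 CPM in the Control libraries (-0.35), and the ligands WNT7A (-0.43) and WNT5B (-0.31). FZD2 did not overlap between the lines. In the list of EGFR ligands and feedback genes of the MAPK pathway, EREG, an EGFR ligand, was at 39, 38.6 and 27 CPM in the CT83 libraries, against 29, 22.6 and 26.2 CPM in the Control libraries (0.43, SE 0.14). The EGFR inhibitor ERRFI1 was at 163, 148 and 167 CPM in the CT83 libraries, against 191, 177 and 184 CPM in the Control libraries (-0.21, SE 0.08). ERRFI1 did not overlap, and EREG did. Of 26 genes of the TGF-beta pathway, 0 had an unadjusted p under 0.05.

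Among inflammatory genes IL6 had the smallest unadjusted p. Of 27 NF-kB and inflammatory genes, 1 (IL6) had an unadjusted p under 0.05, and 3 with lower and 1 with higher values did not overlap (5.73% and 4.73% of all genes). The chemokine CXCL8 was at 42.6, 41.3 and 39.3 CPM in the CT83 libraries, against 50.4, 51.6 and 55.6 CPM in the Control libraries (log2 fold change -0.35, interval -1.23 to 0.52). It was picked after its values were seen. Of 29 interferon-stimulated genes, 1 had an unadjusted p under 0.05, the antiviral GTPase MX1 at 2.74, 2.16 and 2.1 CPM in the CT83 libraries, against 3.94, 4.2 and 2.53 CPM in the Control libraries (-0.60, SE 0.25). MX1 was picked after its values were seen. Of 23 genes of MHC class I presentation, 0 had an unadjusted p under 0.05 in edgeR's test and 5 did not overlap, all lower (5.73% of all genes), with a median of -0.06.

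Lists of cell growth, stress and core metabolism had medians between -0.06 and 0.07. Of 38 DNA replication genes, 36 mitosis genes, 26 apoptosis genes, 24 NRF2 and antioxidant genes, 29 genes of cholesterol and fatty acid synthesis, 79 ribosomal protein genes, 62 nuclear genes of oxidative phosphorylation and 13 mitochondrially encoded genes, 0 had an unadjusted p under 0.05 in edgeR's test. The replicative helicase subunit MCM2, picked after its values were seen, was at 283, 280 and 271 CPM in the CT83 libraries, against 273, 284 and 280 CPM in the Control libraries. Its log2 fold change was -0.01 with a 95% confidence interval of -0.15 to 0.14. The level of this gene thus lay within narrow limits in all 6 libraries. Among hypoxia and glycolysis genes, SLC16A3, a lactate exporter, was at 390, 397 and 434 CPM in the CT83 libraries, against 355, 349 and 326 CPM in the Control libraries (0.25, SE 0.10). DDIT3, a transcription factor of the stress response, was at 11.1, 11.2 and 13.4 CPM in the CT83 libraries, against 14.2, 13.5 and 16.9 CPM in the Control libraries (-0.32, SE 0.14). PLK2, a kinase induced by p53, was at 165, 159 and 200 CPM in the CT83 libraries, against 199, 213 and 210 CPM in the Control libraries (-0.25, SE 0.09). Of these 3, PLK2 overlapped between the lines.

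**Figure D4:**
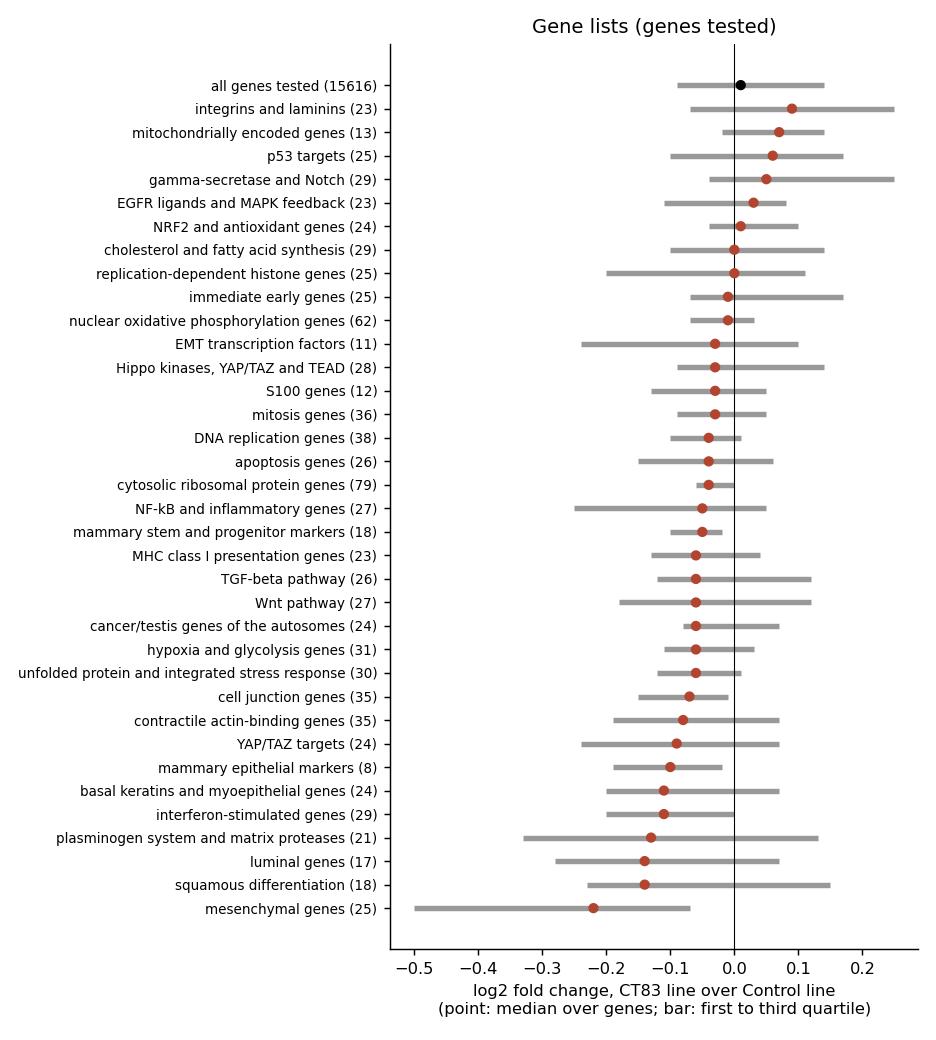
Median (point) and interquartile range (bar) of the log2 fold change of the CT83 line over the Control line in each gene list with at least 5 genes tested, with the number tested in brackets and all genes at the top. The medians run from -0.22 for mesenchymal genes to 0.09 for integrins and laminins, against 0.01 over all genes; that of integrins and laminins was -0.10 without CT83 replicate 3.

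In CT83 replicate 3 and Control replicate 2 longer transcripts took a larger share of the counts than in the other 4 libraries. The slope of log2 CPM on log2 transcript length, centred on the average of all 12 libraries, was 0.0418 in CT83 replicate 3, against 0.0215 in Control replicate 2. It was -0.01 and -0.00207 in the other CT83 libraries, against -0.00299 and -0.00712 in the other Control libraries. The proliferation marker MKI67, a long transcript picked after its values were seen, was at 31.8, 104 and 242 CPM in the CT83 libraries, against 23.6, 136 and 19.5 CPM in the Control libraries (log2 fold change 1.08, SE 1.22). CT83 replicate 3 was also the library with the highest CT83 level. The part of the length trend in that level was not tested.

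Without CT83 replicate 3, Control replicate 2 and HORMAD1 replicate 1, the 3 libraries with the steepest upward slopes, the quasi-likelihood test of edgeR with Benjamini-Hochberg adjustment called 119 of 15667 genes (0.76%). Of these, 40 were higher, CT83 included (0.255%), and 79 lower (0.504%). This fit compares 2 CT83 with 2 Control libraries. The 6 named higher genes of smallest adjusted p were KRT15, PTPRS, MRC2, CCDC200, MTSS1 and PXYLP1, and the 6 lower ones CD24, TPM1, HS3ST2, TAGLN, GLIPR1 and PTHLH.

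The 2 libraries left out of the comparison give a separate reading of these calls. Set against each other, CT83 replicate 3 was on the called side of Control replicate 2 for 21 of 39 higher genes other than CT83 (53.8%, where 52% of all genes were higher) and for 27 of 79 lower genes (34.2%, where 48% of all genes were lower). The median log2 difference in the libraries left out was 0.06 for the higher genes, against 0.66 in the fit without them, and 0.07 for the lower genes, against -0.45. Over all 6 libraries, 15 of the 39 and 24 of the 79 did not overlap, where 4.73% of all genes were higher and 5.73% lower without overlap. Since 4 of the 6 libraries chose these genes, nothing is read from that count. In the double line against the HORMAD1 line, 12 of the 39 and 53 of the 79 had the sign of the call, where 48.1% and 51.9% of all genes had that sign.

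HS3ST2, a heparan sulfate sulfotransferase, was at 8.83, 6.83 and 24.9 CPM in the CT83 libraries, against 17.7, 16.1 and 23.1 CPM in the Control libraries. Its call rested on CT83 replicates 1 and 2, and CT83 replicate 3 lay above every Control library. PTHLH, the parathyroid hormone-like hormone, was at 37.9, 33.9 and 55.7 CPM in the CT83 libraries, against 52.7, 42.9 and 56.7 CPM in the Control libraries. There CT83 replicate 3 lay among the Control values. MRC2, an endocytic collagen receptor, was at 67.6, 88.4 and 92.9 CPM in the CT83 libraries, against 52.6, 60.2 and 43.9 CPM in the Control libraries, and did not overlap. PTPRS, a receptor phosphatase, was at 19.8, 22.8 and 24.5 CPM in the CT83 libraries, against 11.8, 19.1 and 12 CPM in the Control libraries, and did not overlap either. MAL2 and MYEOV, picked after their values were seen, were called lower in this fit and did not overlap over all 6 libraries. MAL2 and MRC2 overlap other tested genes on the opposite strand. MAL2, a protein of apical membrane traffic, was at 573, 601 and 568 CPM in the CT83 libraries, against 706, 781 and 744 CPM in the Control libraries. MYEOV was at 31.8, 34 and 36.3 CPM in the CT83 libraries, against 50.5, 51.1 and 46.8 CPM in the Control libraries.

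**Figure D5:**
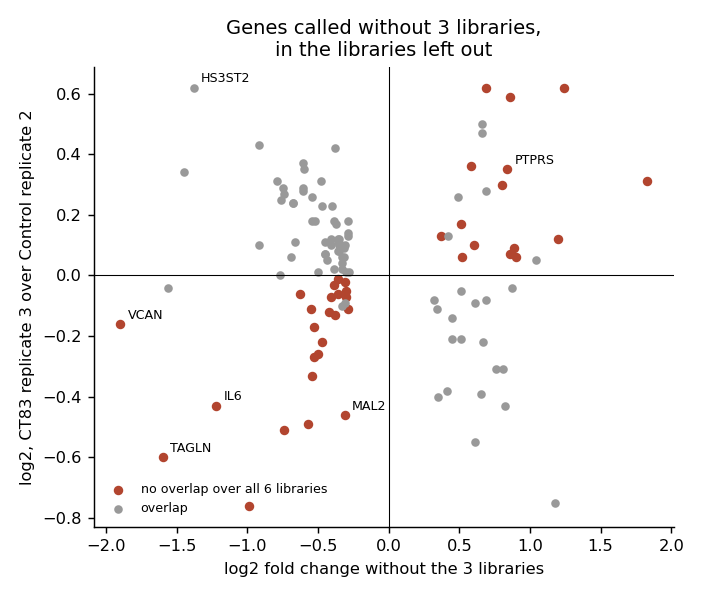
The 118 genes other than CT83 called without the 3 libraries of steepest upward length slope. The horizontal axis is their log2 fold change of the CT83 line over the Control line in that fit, and the vertical axis the log2 difference of CT83 replicate 3 over Control replicate 2, which the fit did not use. Genes that did not overlap over all 6 libraries are coloured; 21 of 39 higher and 27 of 79 lower genes lie on the called side of the horizontal line.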

How the data were processed

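Polyadenylated RNA of HMLE lines was measured by RNA sequencing, with 3 libraries of the CT83 line and 3 of the Control line among 12 in all. Per the labels' protocols, NEBNext Ultra libraries were prepared from RNA spiked with ERCC RNA. The submitters' processing notes name STAR 2.7.5c, Trimmomatic 0.39, SAMtools and Picard, and the builds hg19 and hg38 without roles. How reads were counted, with which annotation and strand setting, is not given in the sources used here. Each file the authors deposited holds expected counts (estimated, not normalised), and rounding them to whole numbers changed 6.75% of values by at most 0.5. The files held 0 ERCC entries, and 0 columns lacked a sample. Gene positions and transcript lengths came from GENCODE 29 (GRCh38), which held 58356 of 61533 identifiers.

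The filterByExpr function of edgeR 4.0.16 (R 4.3.3) removed genes with low counts (minimum count 10), and libraries were scaled by TMM. A robust quasi-likelihood model with 1 mean per line was fitted to all 12 libraries (8 residual degrees of freedom), with Benjamini-Hochberg adjustment over 15616 genes and calls at an adjusted p under 0.05. SE and 95% intervals came from this test. CPM values use TMM-scaled library sizes. Genes were named by rule: CT83 and HORMAD1, called genes, the 10 of smallest p on each side that did not overlap and averaged at least 2 in log2 CPM, 2 per list, neighbours of CT83 within 2 Mb, cell markers, and 6 per side called without 3 libraries. Other genes were picked after their values were seen, also where this is not said beside them. Among these were MX1, HES1, REC8, MARVELD2, PKP2, KRT17, OXTR, FGFBP1, MYH9 and FLNA. The members, lists and tests were chosen with earlier results of these data known. The design had assumed raw counts, and the same test was kept. Alternatives were DESeq2 1.42.0, limma-voom 3.58.1, other scalings and filters, a replicate block, a length covariate and leaving out libraries. Some single genes are not reported here.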

Additional observations from a re-analysis of the deposited data

How the results depend on the processing

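The 20 genes of smallest p kept their direction and stayed uncalled in 490 of 500 values over 25 alternative fits. In the other 10 they were called, all without the 3 libraries of steepest upward length slope, and 0 reversed. Since these genes were picked for not overlapping in the same libraries, their kept direction largely follows from that choice and is a description. Of 35 list medians, 17 kept their sign in every fit and 18 changed it. That of integrins and laminins, 0.09, went to -0.10 without CT83 replicate 3. Of 875 values, 856 moved by less than the SD between replicates. That SD was larger than some of the medians themselves, as for integrins and laminins (0.28), whose change of sign did not count as a move. The count of 856 therefore does not show that the medians were stable. The alternatives below changed counts of calls or the CT83 call (edgeR adjusted p); the cause was not tested. Without a low-count filter, 0 genes were called higher, 787 had an unadjusted p under 0.05, 53.8% of intervals lay within 2-fold and CT83 had an adjusted p of 0.295. With only the 6 libraries compared, 0 were called higher, 672 had an unadjusted p under 0.05 and CT83 had an adjusted p of 0.938. The length slope as a covariate gave 926 genes at an unadjusted p under 0.05. Without the 3 libraries of steepest upward slope, 40 genes were called higher, 79 lower and 2075 had an unadjusted p under 0.05. At an adjusted p under 0.01, 0 were called higher.

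Leaving out 1 library at a time, genes called higher numbered 0 to 1 and lower 0 to 0. Genes at an unadjusted p under 0.05 numbered 243 (without Control replicate 3) to 1041 (without CT83 replicate 3), with 254 without CT83 replicate 2 and 950 without HORMAD1 replicate 1. Intervals within 2-fold made up 77.6% to 84.5%. The adjusted p of CT83 ran from 1.98e-08 to 0.315 and exceeded 0.05 when the library left out was replicate 1, 2 or 3 of the double line (0.197, 0.315 and 0.226), HORMAD1 replicate 1 (0.22), CT83 replicate 2 (0.222) or Control replicate 2 (0.0626). Same-numbered CT83 and Control libraries had correlations of their deviations of 0.20, -0.03 and -0.22, so the numbers were not taken as pairs; with the replicate number as a block, 1 gene was called and 426 had an unadjusted p under 0.05. Of all intervals 83.8% lay within 2-fold, and 97.7% of those of genes with a mean log2 CPM of at least 5; the parts of depth and of spread between libraries in the wider intervals were not told apart.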
